A study of Mus musculus with 10 samples.

Results

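The Toll-like receptor family was followed in RNA from sorted hippocampal microglia of 3xTg AD mice that had received glatiramer acetate (GA) or PBS. Its members were taken by symbol from the table of read counts: *Tlr1*, *Tlr2*, *Tlr3*, *Tlr4*, *Tlr5*, *Tlr6*, *Tlr7*, *Tlr8*, *Tlr9* and *Tlr13*, 10 of the 55453 genes listed. All 10 passed the filter on low counts, which left 14481 genes to be tested. The rule itself uses symbols alone and no measured value.

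Toll-like receptors are pattern recognition receptors through which microglia sense microbial products and products of damaged tissue. TLR1, TLR2, TLR4, TLR5 and TLR6 act at the cell surface on lipoproteins, lipopolysaccharide or flagellin, and TLR2 works as a dimer with TLR1 or TLR6. TLR3, TLR7, TLR8, TLR9 and TLR13 sit in endosomes and recognise nucleic acids. They reach this compartment with the chaperone UNC93B1 and signal through MyD88, or in the case of TLR3 through TRIF, to NF-κB and interferon regulatory factors. In models of Alzheimer's disease, TLR2 and TLR4 with the co-receptor CD14 have been studied as microglial sensors of amyloid β.

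All mice were female, over 15 months old by the labels, and of the 3xTg genotype, whose mutant human transgenes under the Thy1.2 promoter include *APP* with the Swedish mutation and *MAPT*. The GA group (n = 5 libraries) was given 0.1 mg of GA weekly for approximately 8 weeks, and the PBS group (n = 5) was given the vehicle. GA is a mixture of synthetic polypeptides used to treat multiple sclerosis. The mice came from a homozygous colony and were retired breeders, both groups carry the transgenes, and non-transgenic libraries were not analysed here. Viable CD45int CD11b+ cells were sorted from the hippocampi, so the values describe a sorted population and not single cells. Each library title joins a prefix, whose meaning is not given, and a number: all PBS libraries carry prefix 388, GA libraries 1 and 2 carry 394, and GA libraries 3, 4 and 5 carry 400. No prefix holds both treatments, and prefix and treatment cannot be told apart.

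Expression is given as CPM, counts scaled to the size of each library. Library totals ran from 32332185 to 38764643 counts. Defining markers of microglia, the sorted cell type, were abundant in every library: the 10 markers, among them *P2ry12*, *Tmem119* and *Cx3cr1*, summed to between 56190 and 66370 CPM in PBS and between 57210 and 62010 CPM in GA. Other myeloid markers were scarce but uneven. The 12 neutrophil markers summed to between 38.1 and 449 CPM in PBS and between 11.0 and 171 CPM in GA, and all 8 that could be tested had estimates below 0 in GA, 7 of them at an unadjusted p under 0.05. The 8 monocyte markers summed to between 48.0 and 172 CPM in PBS and between 50.3 and 106 CPM in GA. All 7 that could be tested had estimates below 0 in GA, 3 of them at an unadjusted p under 0.05. Of all genes tested, 3.17% were lower in GA at that threshold. In an exact two-sided permutation test over libraries, the neutrophil sum gave p = 0.0794 and the monocyte sum p = 0.405. The 8 border-associated macrophage markers summed to between 53.1 and 275 CPM in PBS and between 52.3 and 208 CPM in GA, highest in PBS library 4. That library also held the least *Itgam*, which encodes the CD11b used for the sort, at 88.7 CPM against up to 299 CPM elsewhere.

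The first question was which receptors these cells transcribe, for which CPM were divided by the exon length of each gene. *Tlr2* stood highest at 157 ± 23.8 CPM per kilobase (SD, n = 10 libraries), followed by *Tlr13* at 129 ± 10.3 and *Tlr7* at 97.3 ± 10.3. TLR13 recognises bacterial ribosomal RNA and TLR7 single-stranded RNA. These 3 genes together made up 79.4% of the summed level of the 10 members, with a range over libraries of 77.9% to 80.6%. *Tlr4*, the lipopolysaccharide receptor, followed at 34.7 ± 4.01 CPM per kilobase and *Tlr3*, the receptor for double-stranded RNA, at 27.4 ± 2.14. *Tlr1* reached 16.5 ± 3.19 and *Tlr6* 12.9 ± 1.65 CPM per kilobase. The flagellin receptor gene *Tlr5* had 4.43 ± 0.401, the CpG DNA receptor gene *Tlr9* 2.58 ± 0.588 and *Tlr8* 0.682 ± 0.350 CPM per kilobase.

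Not every step in this order exceeded the spread between libraries. *Tlr2* was above *Tlr13* in 9 of 10 libraries with overlapping ranges, and with coding length as the divisor in only 6 of 10, so their order is not settled. *Tlr13* was above *Tlr7* in 10 of 10 libraries, by a factor of 1.21 to 1.42. *Tlr1* was above *Tlr6* in 9 of 10, with overlapping ranges. The ranges of *Tlr3* and *Tlr1*, of *Tlr6* and *Tlr5*, and of *Tlr9* and *Tlr8* did not overlap. The cell-surface receptors accounted for 46.7% ± 3.08 (SD, n = 10) of the summed level per kilobase of the 10 members and the endosomal receptors for 53.3% ± 3.08. The surface share was 45.7% ± 2.40 in PBS and 47.6% ± 3.66 in GA (n = 5 each).

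**Figure D1:**
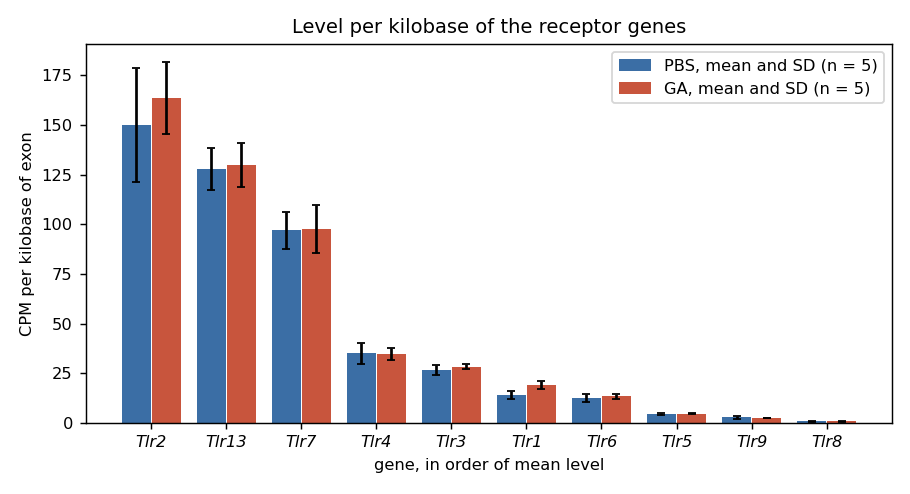
Level of each receptor gene in CPM per kilobase of exon, as bars for the mean of the PBS and GA groups with SD (n = 5 each), in order of the mean over all libraries. *Tlr2*, *Tlr13* and *Tlr7* stand above the other members, and *Tlr8* is at 0.682 CPM per kilobase.

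The other mouse members of the family, *Tlr11* and *Tlr12*, whose products form a receptor for profilin, differed from each other. *Tlr11* had between 1 and 43 counts per library. *Tlr12* had 139 ± 6.96 CPM in PBS and 128 ± 17.9 CPM in GA (SD, n = 5 each), with a log2 fold change of -0.12 and an SE of 0.09 (edgeR, adjusted p = 0.910). Its level per kilobase of exon, 42.2, lay between those of *Tlr7* and *Tlr4*, whereas per kilobase of coding length it was 49.3, below *Tlr4* at 77.0 and *Tlr3* at 52.6.

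The second question was whether GA treatment changed the expression of the receptors. In edgeR's quasi-likelihood test with Benjamini-Hochberg adjustment, 0 of the 10 members were called at an adjusted p under 0.05, as were 0 of all 14481 genes tested (0%). DESeq2 with its defaults called 0 members at the same threshold and 2 of all genes. At an unadjusted p under 0.05, 374 genes were higher in GA (2.58%) and 459 lower (3.17%). Of the members, 1 was higher by this measure, *Tlr1*, and 0 were lower. The estimated log2 fold changes were above 0 for 7 members and below 0 for 3, with a median of 0.05 against 0.0002 over all genes tested. The labels name the libraries as separate samples but do not say how many animals each one stands for, so the p-values measure the spread between these libraries. In bulk RNA from sorted cells, fewer cells of a type and less RNA per cell cannot be told apart.

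**Figure D2:**
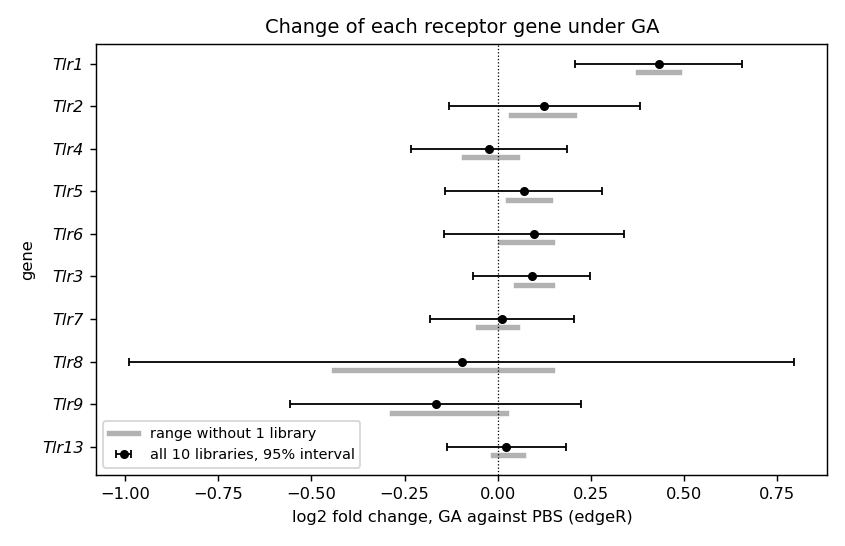
Log2 fold change of each member, GA against PBS, as estimated by edgeR over all 10 libraries with its 95% interval (black) and the range of the estimate when any 1 library is left out (grey bar). *Tlr1*, at 0.43, has an interval above 0, and the intervals of the other 9 members include 0.

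*Tlr1*, the TLR2 partner for triacylated lipoproteins, was the member that differed most. The PBS libraries 1 to 5 had 39.9, 54.1, 52.3, 39.8 and 49.3 CPM, and the GA libraries 1 to 5 had 55.3, 61.2, 61.1, 69.2 and 70.7 CPM. Every GA library lay above every PBS library, and the closest pair was PBS library 2 and GA library 1. *Tlr1* was 1 of 63 genes (0.435% of those tested) with this pattern, and 66 genes (0.456%) had every GA library below every PBS library. The means were 47.1 ± 6.80 CPM in PBS and 63.5 ± 6.39 CPM in GA (SD, n = 5 each), from 1285 to 2749 counts per library. The log2 fold change was 0.43 with an SE of 0.10, and the exact two-sided permutation test over libraries gave p = 0.00794, the smallest that 5 against 5 libraries allow, before any correction for the number of genes. Adjusted over all genes, the edgeR p was 0.847, although *Tlr1* ranked 10th of the genes tested by its p-value. DESeq2 gave the same log2 fold change of 0.43 (SE 0.11) with an adjusted p of 0.0989. At an adjusted p under 0.1, DESeq2 placed 15 genes as higher in GA (0.0794% of 18894), and *Tlr1* was the 1 member among them.

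The estimate for *Tlr1* did not rest on a single library. Leaving out each library in turn moved the edgeR log2 fold change between 0.38 and 0.49, and without PBS library 4 it was 0.38. DESeq2's adjusted p ran from 0.0620 to 0.566 over the same exclusions, the highest without GA library 4. It was above 0.1 without PBS library 1 or 4 and without GA library 3, 4 or 5. Against the PBS libraries, the log2 fold change was 0.31 with the GA libraries of prefix 394 alone (mean 58.2 CPM) and 0.51 with those of prefix 400 alone (67.0 CPM). The difference between these GA libraries, a log2 fold change of 0.20 with an SE of 0.15, was not called in a fit of the 3 prefixes (edgeR, adjusted p = 0.9996). Across the libraries, the genes whose profile was most like that of *Tlr1* were *Arl16*, *Ercc6* and *Etaa1*, with root mean square differences of 0.359, 0.414 and 0.418 between standardised log2 CPM over 10 libraries, where the median over all genes was 1.40.

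*Tlr6*, the partner of TLR2 for diacylated lipoproteins, is the nearest protein-coding neighbour of *Tlr1*. In the GENCODE annotation of GRCm38, *Tlr1* occupies chr5:64924679-64933563 and *Tlr6* chr5:64952031-64960097, both on the minus strand and 18467 bases apart. The protein-coding sequence of each lies in 1 exon. *Tlr6* had 46.0, 50.4, 51.7, 34.1 and 49.7 CPM in PBS libraries 1 to 5 and 54.2, 45.9, 55.5, 43.5 and 49.2 CPM in GA libraries 1 to 5. Its groups overlapped, with the lowest value in PBS library 4. The log2 fold change was 0.10 with an SE of 0.11 (edgeR, adjusted p = 0.947), and its 95% interval ran from -0.14 to 0.34. Without PBS library 4, the *Tlr6* estimate was 0.0059.

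The sequences upstream of these neighbouring genes are shown because *Tlr1* and *Tlr6* lie in tandem, and those of *Tlr9* and *Tlr13* because they hold the same letters as *Tlr1*. RefSeq promoter windows on GRCm38.p6, 250 bases before the farthest upstream start, were used for 8 of the 10 members, all but *Tlr4* and *Tlr7*. Capitals mark GAGGAAG, a form of the purine-rich core bound by PU.1, a transcription factor of the myeloid lineage encoded by *Spi1*. Bases inside the gene body as annotated by GENCODE were removed from the printed lines only, and each line runs 5′ to 3′ along the strand of the gene. The first is chr5:64933564-64933808 on the minus strand, the second chr5:64960098-64960298 on the minus strand, the third chr9:106222348-106222597 on the plus strand and the fourth chrX:106143025-106143203 on the plus strand.
Tlr1: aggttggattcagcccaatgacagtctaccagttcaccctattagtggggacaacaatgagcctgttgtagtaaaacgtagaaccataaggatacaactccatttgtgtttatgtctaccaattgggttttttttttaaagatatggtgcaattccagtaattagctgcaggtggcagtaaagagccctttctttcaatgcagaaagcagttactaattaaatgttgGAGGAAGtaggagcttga
Tlr6: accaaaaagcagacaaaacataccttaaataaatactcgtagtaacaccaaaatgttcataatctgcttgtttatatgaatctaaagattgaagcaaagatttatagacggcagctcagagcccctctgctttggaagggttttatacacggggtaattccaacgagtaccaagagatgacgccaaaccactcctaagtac
Tlr9: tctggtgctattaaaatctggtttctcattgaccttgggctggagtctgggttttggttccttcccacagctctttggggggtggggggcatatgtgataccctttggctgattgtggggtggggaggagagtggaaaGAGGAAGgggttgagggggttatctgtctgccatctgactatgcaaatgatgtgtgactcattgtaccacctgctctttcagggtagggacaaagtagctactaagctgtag
Tlr13: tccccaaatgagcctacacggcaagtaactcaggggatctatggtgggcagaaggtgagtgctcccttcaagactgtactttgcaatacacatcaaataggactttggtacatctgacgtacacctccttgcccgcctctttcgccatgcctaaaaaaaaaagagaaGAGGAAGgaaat
On either strand, GAGGAAG was found in the windows of 3 of the 8 members, *Tlr1*, *Tlr9* and *Tlr13*, and in 10.4% of the 27025 gene windows of this length. In *Tlr1* the match began 23 bases before the RefSeq start, in *Tlr13* 83 and in *Tlr9* 112. The AP-1 letters TGANTCA were found in 1 member, *Tlr9*, and in 6.85% of all windows. These matches describe the letters of the windows and not binding. GC content of the members' windows ran from 31.2% in *Tlr8* to 62.8% in *Tlr2*, against a median of 52% over all windows. Letters and GC content were counted over the full 250 bases, with bases inside the annotated gene. Only 91 bases of the *Tlr2* window and 0 of the *Tlr3* window lie upstream of the annotated gene.

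*Tlr2* itself, the common partner, had 336, 400, 527, 456 and 543 CPM in PBS libraries 1 to 5 and 429, 456, 512, 571 and 499 CPM in GA libraries 1 to 5. PBS libraries 1 and 2 were the lowest, and the groups overlapped. The means of 452 ± 86.8 and 493.2 ± 54.6 CPM (SD, n = 5 each) differed by a log2 fold change of 0.12 with an SE of 0.12 (edgeR, adjusted p = 0.938). It was 0.03 without PBS library 1 and 0.20 without PBS library 5. The gene whose profile was most like that of *Tlr2* was *Axl*, a receptor tyrosine kinase that takes part in the uptake of dying cells, with a root mean square difference of 0.267, followed by *Ell2* and *Cxcl14*.

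Because ratios within a library do not depend on its scaling, 5 receptor pairs were compared in this way. The log2 ratio of *Tlr1* to *Tlr2* was -3.25 ± 0.268 in PBS and -2.95 ± 0.102 in GA, a difference of 0.30 (exact permutation p = 0.0714, adjusted over the 5 pairs 0.179). *Tlr1* to *Tlr6* was 0.02 ± 0.157 in PBS and 0.35 ± 0.266 in GA, a difference of 0.33 (exact permutation p = 0.0556, adjusted 0.179), with 3 of 5 GA libraries above all PBS libraries. Neither ratio differed by more than the test could separate from the spread between libraries. *Tlr6* to *Tlr2* differed by -0.03 (exact permutation p = 0.929), and *Tlr7* to *Tlr9* by 0.125 (exact permutation p = 0.492). *Tlr7* to *Tlr8* differed by 0.06 (exact permutation p = 0.913).

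**Figure D3:**
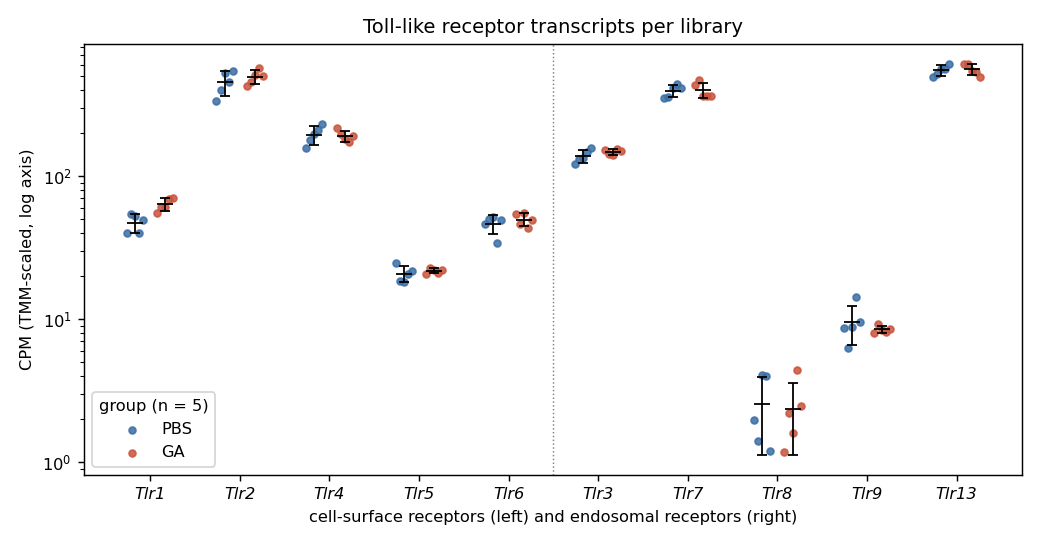
CPM of each member in each of the 10 libraries on a log axis, PBS in blue and GA in red, with the mean and SD of each group (n = 5) in black. The GA points of *Tlr1* (55.3 to 70.7 CPM) lie above its PBS points (39.8 to 54.1 CPM), and in every other member the groups overlap.

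The remaining cell-surface receptors overlapped between the groups. *Tlr4*, at chr4:66827584-66930284, had 157, 177, 196, 210 and 231 CPM in PBS libraries 1 to 5 and 217, 196, 181, 172 and 190 CPM in GA libraries 1 to 5. All GA values of *Tlr4* fell inside the PBS range, and the log2 fold change was -0.02 with an SE of 0.10 (edgeR, adjusted p = 0.984). *Tlr5* ranged from 18.2 to 24.7 CPM in PBS and from 20.5 to 22.9 CPM in GA, with a log2 fold change of 0.07 and an SE of 0.10 (edgeR, adjusted p = 0.953). Without PBS library 1, the highest for *Tlr5*, it was 0.14.

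Among the endosomal receptors, *Tlr3* had 121, 132, 133, 147 and 156 CPM in PBS libraries 1 to 5 and 152, 142, 140, 154 and 149 CPM in GA libraries 1 to 5. The GA values fell within the PBS range, and the log2 fold change of 0.09 with an SE of 0.07 was not called (edgeR, adjusted p = 0.919). An antisense gene, *Gm45542*, overlaps 381 exon bases of *Tlr3*, and the library kit does not mark strand, so reads there cannot be assigned to one of them by strand. *Tlr13* ranged from 492 to 610 CPM in PBS and from 497 to 612 CPM in GA, with a log2 fold change of 0.02 and an SE of 0.08 (edgeR, adjusted p = 0.978). *Tlr9* had 8.64, 6.25, 8.80, 14.2 and 9.61 CPM in PBS libraries 1 to 5 and 8.00, 9.29, 8.35, 8.10 and 8.54 CPM in GA libraries 1 to 5. PBS library 4 held the highest *Tlr9* value. The log2 fold change of *Tlr9* was -0.17 with an SE of 0.18 (edgeR, adjusted p = 0.945), and without PBS library 4 it was 0.02.

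*Tlr7* showed a split between the GA libraries. Its values were 352, 359, 412, 440 and 415 CPM in PBS libraries 1 to 5, 434 and 469 CPM in GA libraries 1 and 2 of prefix 394, and 365, 362 and 362 CPM in GA libraries 3 to 5 of prefix 400. Over all libraries the log2 fold change was 0.01 with an SE of 0.09 (edgeR, adjusted p = 0.993). Prefix 400 against prefix 394 gave a log2 fold change of -0.31 with an SE of 0.10 (edgeR, adjusted p = 0.613), in a comparison added after the data were seen. The same comparison gave -0.21 (SE 0.10) for *Tlr13* and -0.19 (SE 0.14) for *Tlr4*. *Tlr12* was 112 CPM in prefix 394 and 139 CPM in prefix 400, a log2 fold change of 0.31 with an SE of 0.10 (edgeR, adjusted p = 0.589). None of these differences passed the adjustment, in which 2 of all 14481 genes were called.

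*Tlr7*, *Tlr13* and *Tlr4* had similar profiles over the 10 libraries. The root mean square difference between their standardised profiles was 0.545 for *Tlr7* and *Tlr13*, 0.610 for *Tlr4* and *Tlr13* and 0.716 for *Tlr4* and *Tlr7*, against a median of 1.42 over all genes. *Tlr7* was the 14th most similar of all genes to *Tlr13*, whereas *Tlr4* was the 132nd most similar to *Tlr7*. Other pairs of the family were near the last of these values, with 0.721 for *Tlr11* and *Tlr13*, 0.780 for *Tlr2* and *Tlr3* and 0.790 for *Tlr3* and *Tlr4*. At the other end, *Tlr6* and *Tlr9* differed by 1.87. The points share their libraries and scaling, so these figures are a description. The genes most like *Tlr7* were *Tmem104*, *Ogfrl1* and *Jdp2* and those most like *Tlr13* were *Gpam*, *Igf2r* and *Myadm*. For *Tlr4* they included *Vcl* and *Rad21*, for *Tlr3* *Plekhm1*, *Erap1* and *Vezf1*, and for *Tlr5* *Aldh1l2*, *Lcp2* and *Sh2b2*. For *Tlr6* they were *Mterf4*, *Bod1* and *Ska3*, and for *Tlr9* *Nsfl1c*, *mt-Tp* and *Cdc37*.

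**Figure D4:**
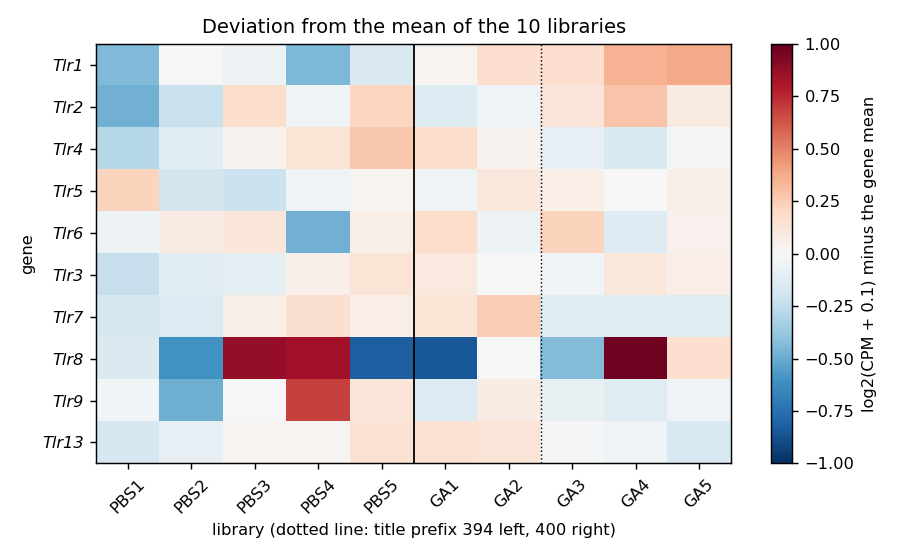
Deviation of each member in each library from its mean over the 10 libraries, on the log2(CPM + 0.1) scale, with red above and blue below the mean, a solid line between PBS and GA and a dotted line between the GA libraries of prefix 394 and 400. *Tlr1* is above its mean in all GA libraries, and *Tlr8* varies most, from -0.849 in GA library 1 to 0.97 in GA library 4.

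*Tlr8* was the least abundant member and the one that varied most between libraries. It had 39 to 167 counts per library, or 1.96, 1.40, 4.09, 3.997 and 1.19 CPM in PBS libraries 1 to 5 and 1.17, 2.189, 1.59, 4.38 and 2.47 CPM in GA libraries 1 to 5. PBS libraries 3 and 4 and GA library 4 were high, and the coefficient of variation over all libraries was 51.4%, against 7.83% for *Tlr3* and 8.03% for *Tlr13*. GA and PBS did not differ by more than this spread, with a log2 fold change of -0.10, an SE of 0.42 and a 95% interval of -0.99 to 0.80 (edgeR, adjusted p = 0.984). The 3 genes most like *Tlr8* were *F13a1*, *Mrc1* and *Cd163*, with root mean square differences of 0.355, 0.370 and 0.437. All 3 are in the list of border-associated macrophage markers, and *F13a1* is also in the monocyte list.

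Each member was then compared with the summed markers of 6 cell types (microglia, neutrophils, monocytes, border-associated macrophages, dendritic cells and B cells) over the 10 libraries, which gave 60 relations. The B cell sum, 565 to 671 CPM in PBS and 539 to 673 CPM in GA, was carried by *Ighm* with 522 to 649 CPM. *Tlr8* followed the 8 border-associated macrophage markers with Pearson's r = 0.937 (permutation p = 0.00028, adjusted over the 60 relations 0.0084) and Spearman's rho = 0.842 (permutation p = 0.0038, adjusted 0.113). Without PBS library 4 and GA library 4, the libraries farthest from the median, r was 0.911. With the dendritic cell markers r was 0.955 (permutation p = 4.0e-05, adjusted 0.0024) and rho 0.927 (permutation p = 0.00038, adjusted 0.0228), and r was 0.945 without the same pair of libraries. Of that list *Clec9a*, which marks conventional dendritic cells, was at 0 counts in 9 of 10 libraries and *Xcr1* was at or below 1.05 CPM, while *Cd209a* ranged from 3.85 to 22.1 CPM and was highest in PBS library 4 and GA library 4. With the monocyte markers r was 0.870 (permutation p = 0.00101, adjusted 0.0202) and rho 0.758 (permutation p = 0.0147, adjusted 0.173), and r was 0.828 without PBS libraries 3 and 4. *F13a1*, at 13.1 to 81.0 CPM, was the marker that this sum shares with the border-associated macrophage sum, so these relations are not separate. With the microglia markers r was -0.749 (permutation p = 0.00777, adjusted 0.0980) and rho -0.806 (permutation p = 0.0072, adjusted 0.113).

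These relations join libraries of both treatments and 3 prefixes, and each treatment holds 5 libraries, under the 6 taken here as the least for a correlation. The high *Tlr8* libraries were found in both groups. Which cells the *Tlr8* reads came from was not tested. No other member had an adjusted p under 0.05 for r or rho with any of the 6 marker sums. Before adjustment, *Tlr9* followed the monocyte markers with r = 0.774 (permutation p = 0.00817, adjusted 0.0980) and rho = 0.745 (permutation p = 0.0173, adjusted 0.173), and r was 0.536 without PBS libraries 3 and 4. *Tlr6* ran opposite to the monocyte markers with r = -0.746 (permutation p = 0.0139, adjusted 0.130) and rho = -0.636 (permutation p = 0.0547, adjusted 0.396), and r was -0.766 without PBS libraries 3 and 4. Its relations to the border-associated macrophage markers, with r = -0.698 (permutation p = 0.0174, adjusted 0.130) and rho = -0.467 (permutation p = 0.179, adjusted 0.689), and to the dendritic cell markers, with r = -0.709 (permutation p = 0.0162, adjusted 0.130) and rho = -0.673 (permutation p = 0.0388, adjusted 0.333), rested on PBS library 4 and GA library 4, without which r was -0.127 and -0.206. *Tlr9* and the neutrophil markers had r = 0.551 (permutation p = 0.0912, adjusted 0.456) and rho = 0.806 (permutation p = 0.0075, adjusted 0.113), and r was 0.671 without GA libraries 3 and 4. *Tlr7* and the B cell markers had r = -0.665 (permutation p = 0.0392, adjusted 0.262) and rho = -0.624 (permutation p = 0.0593, adjusted 0.396), and r was -0.454 without GA libraries 2 and 5. For *Tlr1* and the neutrophil markers, whose estimates were below 0 in GA, r was -0.543 (permutation p = 0.106, adjusted 0.490) and rho -0.552 (permutation p = 0.104, adjusted 0.493), and r was -0.350 without GA libraries 3 and 4.

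**Figure D5:**
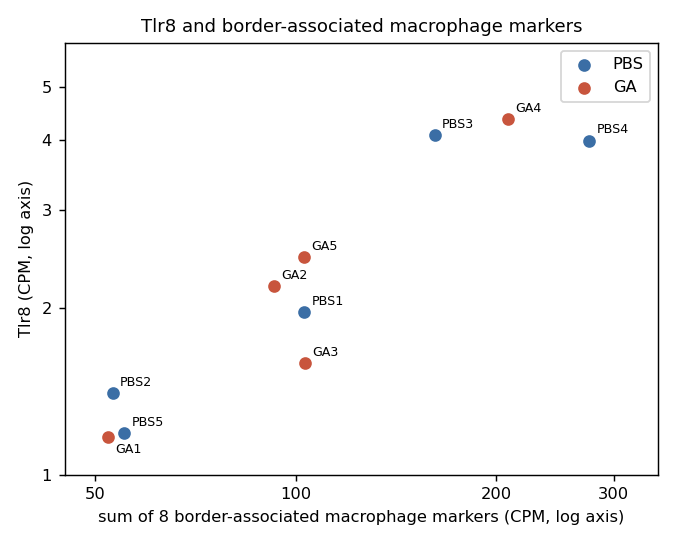
*Tlr8* CPM against the summed CPM of 8 border-associated macrophage markers in each library, both on log axes, PBS in blue and GA in red. PBS libraries 3 and 4 and GA library 4 have the highest values of both, and GA library 1 and PBS library 5 the lowest *Tlr8*, at 1.17 and 1.19 CPM.

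The third question was how the rest of the Toll-like receptor pathway behaved. Of 107 pathway genes in 8 lists, 100 were tested and 0 were called by edgeR at an adjusted p under 0.05. The estimates were above 0 for 66 and below 0 for 34, with a median log2 fold change of 0.04 against 0.0002 over all genes. At an unadjusted p under 0.05, 3 were higher in GA and 1 lower, against 2.58% and 3.17% of all genes tested. In no list was more than 1 gene past that threshold in either direction, and DESeq2 called 0 of the pathway genes.

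The lists are given in the order in which their products act. Among co-receptors and accessory proteins, 3 of the 8 tested were estimated higher and 5 lower, and *Itgb2*, the common chain of the CD11b integrin, was the most abundant at 1016 ± 86.8 CPM in PBS and 1042 ± 49.0 in GA (SD, n = 5 each). *Cd14*, the co-receptor of TLR4 and TLR2, had 906 CPM in PBS and 954 CPM in GA, a log2 fold change of 0.07 with an SE of 0.14 (edgeR, adjusted p = 0.971). Among 11 genes of folding and trafficking, 4 were estimated higher and 7 lower. *Unc93b1*, the carrier of the endosomal receptors, had 2341 ± 115 and 2318 ± 49.3 CPM. *Hsp90b1*, the endoplasmic reticulum chaperone GP96 on which the folding of most Toll-like receptors depends, had 932 ± 67.0 CPM in PBS and 1051 ± 51.0 CPM in GA, a log2 fold change of 0.17 with an SE of 0.06 (edgeR, adjusted p = 0.847). Among 9 tested endosomal proteases and nucleases, 6 were estimated higher and 3 lower, and *Ctss*, cathepsin S, had 9381 ± 1226 and 9348 ± 499 CPM.

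No signalling component was called. Of 6 adaptors, 5 were estimated higher and 1 lower, with *Myd88* at 87.6 CPM in PBS and 93.7 CPM in GA, and *Pik3ap1* was the most abundant at 547 ± 21.5 and 545 ± 26.0 CPM. Of 19 kinases and ubiquitin ligases, 15 were estimated higher and 4 lower, and *Irak2* was the most abundant over all libraries at 202 ± 7.40 and 210 ± 8.84 CPM, although *Irak1*, at 193 and 214 CPM, was above it in the GA mean. Of 14 transcription factors, 7 were estimated higher and 7 lower. *Nfkb1*, which encodes the p105 precursor of the p50 subunit of NF-κB, ranged from 166 to 184 CPM in PBS and from 157 to 159 CPM in GA. Every GA library of *Nfkb1* lay below every PBS library, and *Nfkb1* was 1 of 66 genes (0.456% of those tested) with this pattern. Its log2 fold change was -0.16 with an SE of 0.05 (edgeR, adjusted p = 0.847). *Irf8*, a factor of the myeloid lineage, was the most abundant at 969 ± 66.3 and 952 ± 12.6 CPM.

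Of 15 negative regulators, 12 were estimated higher and 3 lower. *Sigirr*, an inhibitory receptor of the same superfamily, had 1.12 ± 0.402 CPM in PBS and 1.98 ± 0.345 CPM in GA, from 20 to 90 counts per library, a log2 fold change of 0.83 with an SE of 0.31 (edgeR, adjusted p = 0.847). *Inpp5d*, which encodes the phosphatase SHIP1, was the most abundant at 1303 ± 57.5 and 1330 ± 108 CPM. Of 18 tested inducible targets, 14 were estimated higher and 4 lower, with a median of 0.20. *Il12b*, the p40 subunit shared by IL-12 and IL-23, ranged from 0 to 1.53 CPM in PBS and from 1.02 to 10.1 CPM in GA, with 3 of 5 GA libraries above all PBS libraries. Its log2 fold change was 2.47 with an SE of 0.78, from 0 to 384 counts per library (edgeR, adjusted p = 0.847), and 0.97 with the GA libraries of prefix 394 alone and 2.99 with those of prefix 400 alone. *Cd86*, a costimulatory ligand, was the most abundant target at 390 ± 25.9 and 399 ± 19.7 CPM. *Tnf* had 6.95 and 6.60 CPM, *Il1b* 23.5 and 25.9 CPM, and *Il6* 10.5 and 9.07 CPM in PBS and GA.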

How the data were processed

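RNA of sorted hippocampal microglia was sequenced as 100 nt single-end reads in 10 libraries, 5 PBS and 5 GA, grouped by their treatment label. The authors deposited raw counts of reads per gene, without normalization. The submitters' processing notes name bcl2fastq 2.19.0, fastp 0.20.0, STAR 2.7.0f, Subread 1.6.4 with featureCounts, DESeq2 and GRCm38.p6; the annotation release was not given in the sources used here. A count of 0 columns had no sample.

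Genes were kept by filterByExpr at a minimum count of 10, scaled by TMM and tested with edgeR 4.0.16 (quasi-likelihood F-test, no covariate, Benjamini-Hochberg, threshold 0.05) in R 4.3.3, with 95% intervals from its SE and total degrees of freedom. DESeq2 1.42.0 and limma-voom (limma 3.58.1) were alternatives, beside other size factors and filters, a robust fit, each library left out and each GA prefix alone. The DESeq2 fits without 1 library and the fit of the 3 prefixes were chosen after seeing the data. For single genes, log2(CPM + 0.1) was compared by an exact permutation test (two-sided), and correlations were tested with 100000 permutations. CPM use the TMM-scaled totals, and lengths and positions come from GENCODE M21. No pair of libraries was a copy (chi-square per degree of freedom 14.03 to 55.66 over 45 pairs). Counting precision covers counting error only.

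The members, pathway lists and marker lists were chosen with earlier results of these data known. The named genes were all members, *Tlr11* and *Tlr12*, the genes of the sort (*Itgam*, *P2ry12*), the genes of each pathway list at an unadjusted p under 0.05 and its most abundant gene, and the 3 genes most like each member, of which 1 is not reported here; *Tmem119*, *Cx3cr1*, *Cd14*, *Irak1*, *Myd88*, *Tnf*, *Il1b*, *Il6*, *Clec9a*, *Xcr1*, *Cd209a* and *Ighm* were named after their values were seen. On simulated data with 200 of 14481 genes shifted by 0.5, 1 or 2 on the log2 scale, the GA against PBS test recovered 3, 189 and 200, with 0, 9 and 17 false calls. Every simulated gene was given the same spread, a biological coefficient of variation of 21.55%, and not its own. The recovery therefore gives no power for a single member.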

Additional observations from a re-analysis of the deposited data

Results flagged for a closer look

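Of 38 groups examined (members, summed myeloid markers, library totals and named pathway genes, each in PBS and in GA), 1 held a library that stood far from the other 4 by Dixon's test, and none of the members did. *Hsp90b1* had 1048 CPM in PBS library 5, where the next PBS library had 924 CPM and the lowest 876 CPM. Chance flags about 1 in 20 groups, so 1 of 38 is no pattern.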

How the results depend on the processing

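No paired analysis was possible because the title numbers run within a prefix and no prefix holds both treatments. *Tlr1* stayed higher in GA in all 28 alternatives, between 0.31 and 0.51, and was called in 0 of them. *Tlr3*, *Tlr5* and *Tlr6* also kept their direction in all 28. *Tlr6* fell to 0.0054 without PBS library 4 in DESeq2, and *Tlr5* ran from 0.0274 to 0.142. The other 6 members changed sign under at least 1 alternative, none with a call. Without 1 library (edgeR or DESeq2), *Tlr2* ran from 0.0343 to 0.204, *Tlr3* from 0.0485 to 0.145, *Tlr4* from -0.0908 to 0.0521, *Tlr7* from -0.0537 to 0.0523, *Tlr8* from -0.445 to 0.146, *Tlr9* from -0.285 to 0.0231 and *Tlr13* from -0.014 to 0.0688. With GA prefix 394 alone, *Tlr2* was -0.0255, *Tlr4* 0.0942, *Tlr7* 0.196, *Tlr8* -0.580 and *Tlr13* 0.152. With prefix 400 alone, *Tlr7* was -0.117, *Tlr8* 0.163 and *Tlr13* -0.0583. The cause was not tested.

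Among ratios, *Tlr1* to *Tlr6* ran from 0.25 to 0.41 without 1 library. It passed an exact permutation p of 0.05, unadjusted, with prefix 400 alone (0.42, p = 0.0357; prefix 394 alone gave 0.20, p = 0.286), without GA library 1 (0.41, p = 0.0238) and without GA library 3 (0.38, p = 0.0476). *Tlr1* to *Tlr2* ran from 0.23 to 0.39 and passed without PBS library 2 (0.39, exact permutation p = 0.00794). The smallest p that such a test allows depends on the number of libraries and is largest for prefix 394 alone, so passing is not comparable between these settings. *Tlr6* to *Tlr2* was 0.13 with prefix 394 alone and from -0.147 to 0.0706 without 1 library, and *Tlr7* to *Tlr8* was -0.32 with prefix 400 alone, 0.65 with prefix 394 alone and from -0.17 to 0.347 without 1 library. *Tlr7* to *Tlr9* ran from 0.0089, without PBS library 4, to 0.228 without 1 library and was 0.28 with prefix 394 alone and 0.0204 with prefix 400 alone.

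The count of genes called was 2 with DESeq2. Without 1 library it was 0 to 1 in edgeR and 0 to 66 in DESeq2, where the tool and the libraries changed together. Pathway genes higher in GA at an unadjusted p under 0.05 numbered 5 with limma-voom, 8 without the filter, 7 with prefix 400 alone and, without 1 library, 3 to 8 in edgeR and 2 to 9 in DESeq2. Those lower numbered 3 without the filter, 3 with prefix 394 alone, 5 with prefix 400 alone and 1 to 3 without 1 library in either tool. Called pathway genes without 1 library numbered 0 in edgeR and 0 to 1 in DESeq2, the 1 being *Hsp90b1* in DESeq2 without PBS library 5 (adjusted p = 0.0416). In data simulated with the same spread for every gene, a log2 fold change of 0.5 was seldom called. The members have their own spread, so this gives no power for them.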
